A study of Homo sapiens with 6 samples.

Results

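Complement components and regulators were examined in AB 8/13 cells, a conditionally immortalized human podocyte line. The set holds 9 named genes, C3, C1R, C1S, CFB, CFI, CD46, CD55, CD59 and SERPING1, and its members were the rows of the authors' deposited table that carry 1 of these gene names. A row was found for 8 of the 9 genes, in a table of 20745 genes, and CFB has no row in the table used here. RNA came from 6 cultures of differentiated podocytes, 3 given vehicle and 3 given levamisole at 1 µM for 24 h. Levamisole is an anthelmintic drug that is also used to spare steroids in nephrotic syndrome, a disease in which podocytes lose their filtering function.

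The treatment protocol in the sample labels describes both groups as kept in medium without serum, whereas complete medium is given for the vehicle cultures in the study's methods. The cultures were taken at different passages of 1 line, so they are replicates of that line and not of donors. Sequencing followed a modified CEL-seq procedure, which primes cDNA synthesis on the poly(A) tail with an oligo-dT primer that carries the sample barcode, and its reads lie mainly at transcript 3′ ends. The authors' deposited table gives each gene 1 level, the base mean, which is the mean of the counts after scaling of each library. It pools the libraries of both groups and lists no value per culture, so no spread, no depth per library and no test between vehicle and levamisole could be given for the members. The other columns of the table hold the authors' own comparison of the groups and were not used here. The results are therefore the levels of the complement genes in these podocytes, their order, and how well reads can be assigned to each of them.

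Complement is a cascade of plasma and cell surface proteins that marks targets for removal and can perforate membranes. The classical pathway starts with C1q and its proteases C1r and C1s, the lectin pathway with sugar-binding proteins, and the alternative pathway with C3 and factor B, and the routes meet at the cleavage of C3. Host cells are shielded by regulators in the fluid, such as C1 inhibitor and factor I, and on the membrane, such as CD46, CD55 and CD59, and most circulating components are made by the liver. In the kidney, podocytes lie on the filtration barrier, where deposited complement is a feature of several glomerular diseases.

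The level assigned to each member rests on reads at the end of its transcript. The end of the reference transcript is shown for the 7 members in which a polyadenylation signal, the letters that direct cleavage and addition of the tail, was found in the last 40 bases of the canonical transcript. Each line gives 30 bases read 5′ to 3′ from GRCh38 on the strand of the gene, with the signal (AATAAA, or ATTAAA where AATAAA was missing) in capitals.
C1R, chr12:7080219-7080248, minus strand: tttccaAATAAAgttttatgagaaatgcca
C1S, chr12:7071003-7071032, plus strand: tatgtacAATAAAggatgtttataagcaaa
CFI, chr4:109740695-109740724, minus strand: attctcaAATAAAtattttggtgaagcata
SERPING1, chr11:57614819-57614848, plus strand: actctataAATAAAacctgacagaccatga
CD46, chr1:207795475-207795504, plus strand: aatctgttaaAATAAAattgtacatttgga
CD55, chr1:207360937-207360966, plus strand: tcttaaAATAAAactttttttcctccttaa
CFB, chr6:31952055-31952084, plus strand: tgggattgaATTAAAacagctgcgacaaca

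AATAAA was found in 6 of the 9 members, and CFB was the 1 member with ATTAAA. Neither set of letters was found in the last 40 bases of C3 and CD59, which says only that these letters are not in that window, and both genes had levels above 100. Among 20046 canonical transcripts of coding genes, 62.1% held AATAAA, 17.2% held ATTAAA and 75.9% held at least 1 of them in the same window. The 17.2% includes transcripts that also held AATAAA, whereas in the members ATTAAA was sought only where AATAAA was missing. The signal ended between 14 bases (CD46) and 18 bases (C1R and CD55) before the end of the printed window. AATAAA was found in CD46 and CD55, which had levels above 100, and in C1R, C1S, CFI and SERPING1, which had lower ones. CFB, which has no row, carries ATTAAA. These counts are near the shares among all coding transcripts and do not set the members apart.

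The membrane regulators were the most highly expressed members, and CD59 stood above all the others. CD59, the inhibitor of membrane attack complex assembly, had a base mean of 1317, which placed it 539th from the top of the table and above 97.4% of the listed genes. CD46, the membrane cofactor with which factor I cleaves C3b and C4b, had a base mean of 305 and lay above 86.9% of the genes. CD55, which speeds the decay of the C3 convertases, had a base mean of 162 and lay above 78.4%. All of them were listed above the highest component.

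C3, the central component, was at the level of CD55 and not at that of the other components. Its base mean was 154, above 77.7% of the listed genes. The members that start the classical pathway were far lower. C1S, the protease that cleaves C4 and C2, had a base mean of 21.3 (above 49.8% of the genes), and C1R, the protease that activates C1s, had 12.7 (above 44.5%). These levels lay at or under the median base mean of the table, 21.8. Their places depended on the genes ranked: among protein-coding genes alone C1S lay above 31.4% and C1R above 25.6%, and among genes detected at a base mean of 5 or more above 21.9% and 13.6%.

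The soluble regulators among the members were as low as the C1 proteases. SERPING1, which encodes the C1 inhibitor, had a base mean of 21.9 and lay above 50.1% of the genes, next to its target C1S. CFI, the protease factor I, was the lowest listed member, with a base mean of 11.0 (above 43.1% of the genes). Among protein-coding genes alone SERPING1 lay above 31.7% and CFI above 24.2%. The members thus fell into a group of 4 with base means above 100 (CD59, CD46, CD55 and C3) and a group of 4 under 25 (SERPING1, C1S, C1R and CFI). Of the 8, 5 lay above the median of all genes (21.8), and SERPING1 (21.9) passed it only narrowly.

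**Figure D1:**
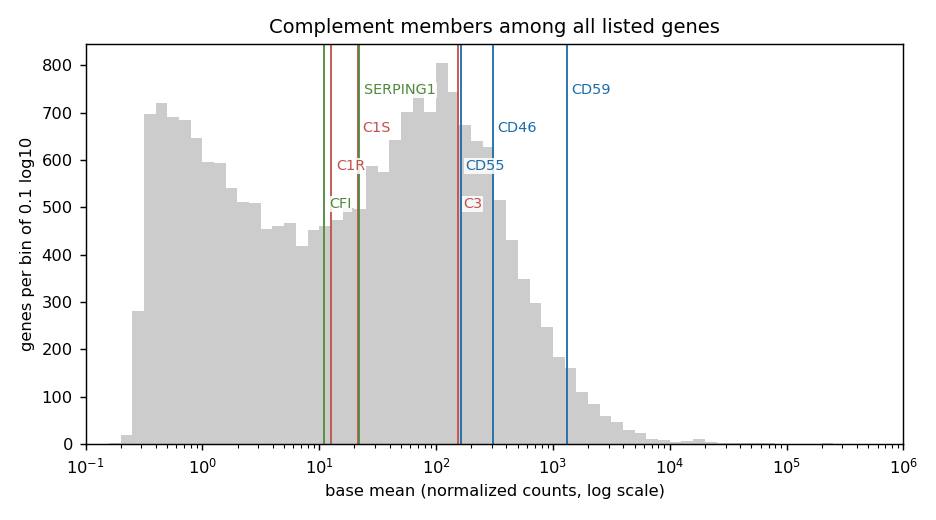
The grey bars count the genes of the table in bins of 0.1 on the log10 scale of the base mean, and each vertical line marks 1 member, blue for membrane regulators, red for components and green for soluble regulators. CD59, CD46, CD55 and C3 lie on the upper side of the distribution, with base means of 154 to 1317, and the lines of SERPING1 (21.9) and C1S (21.3) almost coincide near the median of 21.8.

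Levels of different genes were also compared per kilobase of exon, since a long gene can give more reads than a short one. With reads concentrated at transcript ends the division can overcorrect, so both scales are given. Per kilobase of exon, CD59 had a level of 125, CD46 of 19.7, CD55 of 15.8 and C3 of 13.3. SERPING1 had 3.03, C1S 2.57, C1R 2.18 and CFI 2.07 on the same scale. The order of the 8 members was the same on both scales, and the 4 upper members lay above the per-kilobase median of all genes with a position (5.53), whereas the 4 lower members lay under it.

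The gaps between the members were uneven. CD59 exceeded CD46, the next member, 4.32-fold in base mean and 6.34-fold per kilobase. C3 exceeded SERPING1, the next below it, 7.03-fold in base mean and 4.39-fold per kilobase. These were the 2 widest steps in the order on both scales. From the top to the bottom of the order, CD59 exceeded CFI 119.6-fold in base mean and 60.3-fold per kilobase.

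Other neighbours were close to each other. CD55 and C3 differed 1.05-fold in base mean and 1.19-fold per kilobase. SERPING1 and C1S differed 1.03-fold in base mean and 1.18-fold per kilobase. C1R and CFI differed 1.15-fold in base mean and 1.06-fold per kilobase. Without values per culture it cannot be said which of these neighbours differ beyond the spread between cultures, and the order among the lower members is given as listed. Dividing by the longest transcript in place of all exons put CD55 (42.8) above CD46 (38.96) and CFI (4.65) above C1S (3.67) and C1R (3.62), while CD59 (170.5) stayed highest.

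**Figure D2:**
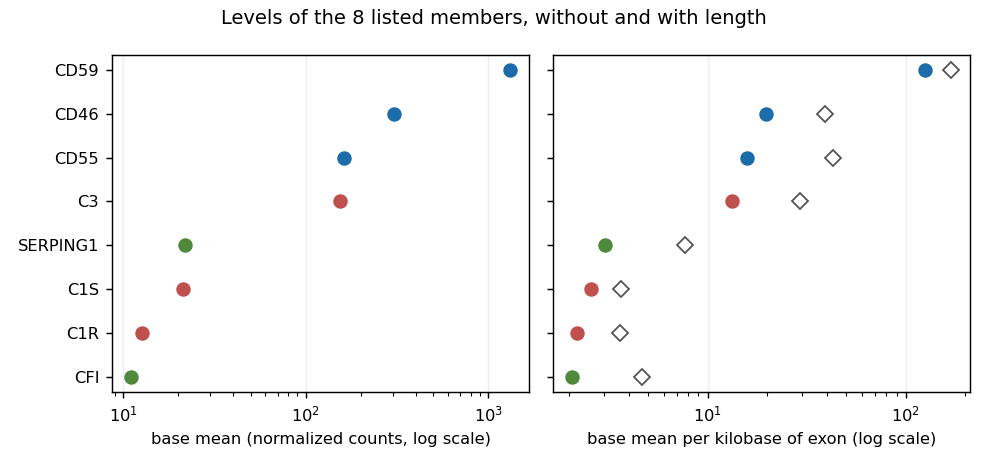
The left panel shows the base mean and the right panel the base mean per kilobase, both on log scales, for the 8 members with a row, with filled circles for division by all exons and open diamonds for division by the longest transcript (blue membrane regulators, red components, green soluble regulators). CD59 stands alone on both scales (1317 and 125), and the 4 lower members lie between 2.07 and 3.03 per kilobase of exon.

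The C1 proteases and their inhibitor can be read together, since they form 1 reaction. The base mean of C1S exceeded that of C1R 1.68-fold and the level per kilobase 1.18-fold. SERPING1 exceeded C1R 1.73-fold in base mean and 1.39-fold per kilobase. C1RL, a relative of C1r encoded beside it, had a base mean of 50.2 and exceeded C1R 3.96-fold in base mean and 4.62-fold per kilobase. C1RL was thus the highest of the C1r-type protease genes in these cells. None of the genes of the C1q chains, C1QA, C1QB and C1QC, which carry C1r and C1s in the complete C1 complex, has a row in the table.

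The members were set within a list of 59 complement genes grouped by role, of which 30 have a row and 20 had a base mean of at least 5, the level taken as detected. All 8 members with a row were detected, compared with 64.3% of all genes in the table and 81.9% of its protein-coding genes. The 8 members held 68.3% of the summed base mean of the list, and CD59 alone held 44.8%. CD46, CD55 and CD59 together held 60.7% of the summed base mean of the list and 39.6% of its summed level per kilobase. No gene of the list had a base mean above that of CD59, and of the 8 genes above 100, 4 were members.

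Among the membrane regulators, 5 of 7 genes have a row and all 5 were detected. SUSD4, a regulator of the C3 convertases, had a base mean of 269 and lay between CD46 and CD55 on that scale. Per kilobase of exon it had 50.4, above CD46 (19.7) and under CD59 (125). THBD, which encodes thrombomodulin, had 17.9. CR1, the complement receptor that shares the actions of CD46 and CD55, has no row, and neither has CSMD1. Membrane regulators held 70.5% of the summed base mean of the list, more than all other roles together.

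Among the soluble regulators, 8 of 14 genes have a row and 5 were detected, SERPING1 and CFI among them. CLU, which encodes clusterin, had a base mean of 120.4, and CPN2, a subunit of the carboxypeptidase that inactivates anaphylatoxins, had 9.19. SERPING1 and CFI were therefore listed under CLU, and CD46, a cofactor of factor I, was above factor I itself. CFHR3, C4BPB and VTN were listed under the detection level.

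Among the components, C3 had the highest level. In the alternative pathway, C3 was the only detected gene of 4: CFD, the protease factor D, was listed under the detection level, and CFB and CFP (properdin) have no row. In the classical pathway C1R, C1S and C2, the partner of C4 in the convertase, were detected, C2 with a base mean of 5.49, and neither C4A nor C4B has a row. C4A and C4B are near-identical copies, so reads from them can be lost from a count of uniquely placed reads. C3 exceeded C5, the single detected terminal component (base mean 13.9), 11.1-fold in base mean and 16.2-fold per kilobase.

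No gene of the lectin pathway was detected, with COLEC10 and MASP2 listed under the detection level and the other 6 of 8 without a row. Of the terminal genes, C8G and C9 were listed under the detection level and C6, C7, C8A and C8B have no row. Receptors for the products of C3 and C5 were low in base mean. C5AR1, the C5a receptor, had a base mean of 17.1 and C3AR1, the C3a receptor, had 5.77. ITGB2, the shared chain of the complement receptors of leukocytes, had 6.20, and C1QBP, a mostly mitochondrial protein that also binds C1q, had 257. C1QBP thus lay above C3 in base mean, while C5AR1 and C3AR1 lay under C1S on that scale. Per kilobase of exon, C5AR1 (5.78) lay above C1S (2.57), and C3AR1 (1.65) lay under it.

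**Figure D3:**
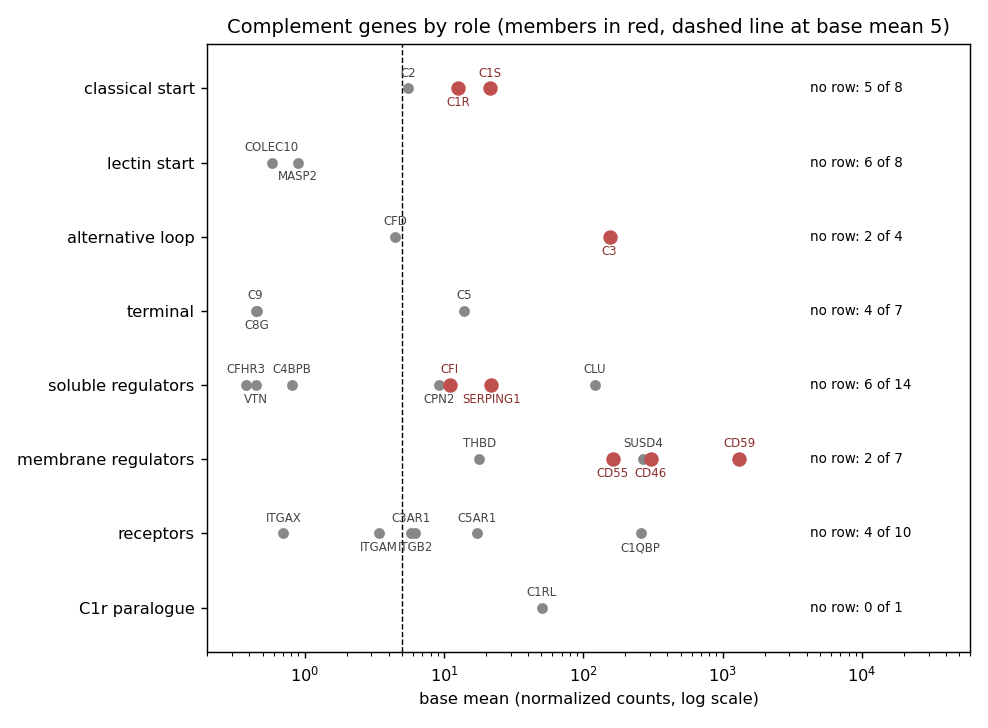
Each point is 1 reported gene of the complement list placed by its base mean on a log scale and by its role, with the members in red, the other genes in grey and the dashed line at the detection level of 5; the text at the right counts the genes of each role without a row. The membrane regulators reach from 17.9 to 1317, whereas both listed genes of the lectin pathway lie under the line.

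Markers of podocytes and of other cell types were read as a description of the line. Of 12 podocyte markers, 10 have a row and 7 were detected, among them ACTN4 (base mean 14320.5), CD2AP (929), SYNPO (22.8) and PLA2R1 (21.8). The slit diaphragm gene NPHS1, a defining marker of mature podocytes, has no row. All of the leukocyte and endothelial markers with a row (3 of 5 in each list) were under the detection level, with the highest at 2.40 and 0.690. Of the 5 hepatocyte markers, SERPINA1 (653) and TTR (5.70) were detected and ALB, APOA1 and APOB have no row. AQP1 (243) was the 1 detected tubule marker of 5, and the 2 of 4 mesangial markers with a row were at 4.14 or less. All cultures were of 1 podocyte line, so these are levels in that line, also for markers named after other cell types. How the marker levels relate to the complement levels was not tested.

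How far a level can be trusted also depends on whether other genes share the exons of the member. The authors counted reads with HTSeq-count at its default settings, which leave a read that lies on exons of more than 1 gene on the same strand uncounted. CD46, CD55 and SERPING1 share no exonic base with another gene on their strand in GENCODE 44. CD46 has 797 of its 15505 exonic bases (5.14%) under MIR29B2CHG, a long non-coding RNA on the opposite strand with a base mean of 2.96. These are the members whose assignment is simplest.

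The other listed members share some exonic bases, mostly away from the 3′ end. C3 shares 1357 of 11577 bases (11.7%) with a long non-coding RNA inside it (ENSG00000276980, base mean 6.06). C1R shares 672 of 5803 bases (11.6%) with C1RL, whose locus overlaps that of C1R by 2954 bases. CD59 shares 629 of 10557 bases (5.96%) with a readthrough gene, a transcript that runs on from a neighbouring gene (ENSG00000284969, no row). C1S shares 229 of 8295 bases (2.76%) with ENSG00000290146, a gene newer than those in the table. None of these genes shares a base of its last 500 exonic bases, where the reads of this protocol concentrate.

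CFI and CFB share the most. CFI shares 1562 of 5319 exonic bases (29.4%) with a readthrough gene (ENSG00000285330, no row), none of them in its last 500 exonic bases but 16.8% of the last 500 bases of its canonical transcript, which ends inside the annotated locus. CFI was the lowest of the listed members, and the part of the shared bases in its level was not tested. CFB, the protease of the alternative C3 convertase, shares 2273 of 5312 exonic bases (42.8%), nearly all with a readthrough gene that joins C2 to it (ENSG00000244255, chr6:31927698-31952048, no row) and 24 bases with C2. Exons of the readthrough gene cover 38.4% of the last 500 and 49.3% of the last 1000 exonic bases of CFB, counted over all its models, and 92.8% of the last 500 bases of its canonical transcript, a window chosen after the first values were seen. The printed window with its ATTAAA signal lies beyond the readthrough gene's end.

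**Figure D4:**
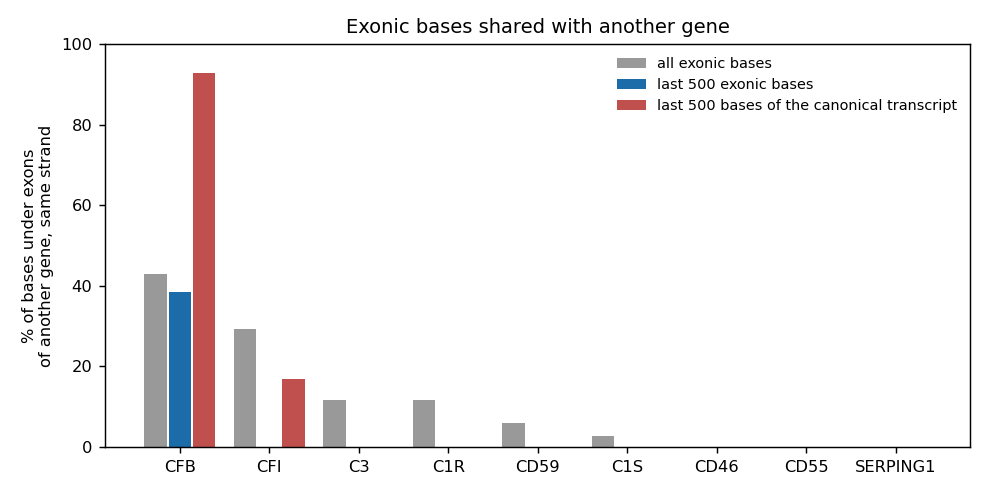
For each of the 9 members, bars show the percentage of bases that another gene's exons cover on the same strand, over all exonic bases (grey), the last 500 exonic bases (blue) and the last 500 bases of the canonical transcript (red). The blue bar of CFB reaches 38.4% and its red bar 92.8%. The red bar of CFI reaches 16.8%, and the other 7 members have neither a blue nor a red bar.

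The same cover was counted over all coding genes, as a description. Of 386 coding genes with at least 90% of the last 500 canonical bases covered on the same strand, readthrough genes left out, 159 have a row (41.2%), and their median base mean was 3.46. Of the other 18888 coding genes, 14251 have a row (75.45%), with a median base mean of 67.8. The count uses the canonical window, which was chosen after the first values were seen. Its cut of 90% lies just under the 92.8% of CFB. The part of the covered end in the missing row of CFB was not tested, and no level of CFB, low or high, can be given.

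**Figure D5:**
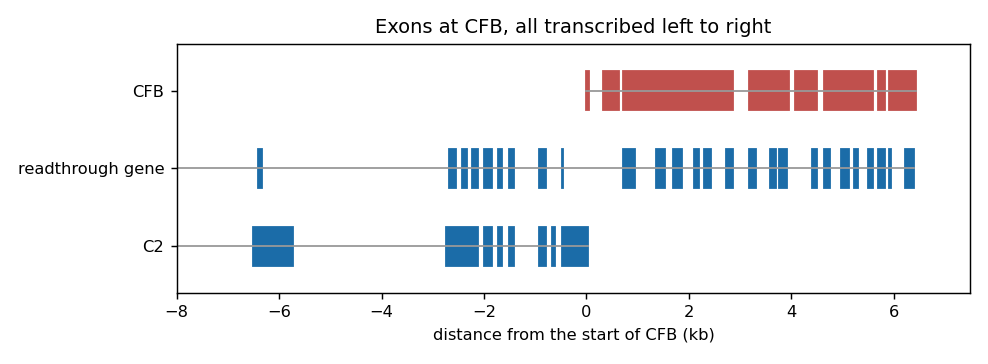
Exons (boxes) of CFB, of the readthrough gene and of C2 are drawn to scale against the distance in kilobases from the start of CFB, with the 5′ parts of C2 and of the readthrough gene, which extend farther left, not drawn. The exons of the readthrough gene run through CFB into its last exon, and cover 38.4% of the last 500 exonic bases and 92.8% of the last 500 bases of the canonical transcript, which span more than 1 exon.

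Several members lie next to each other in the genome, so their values can be read as neighbours (GRCh38). C1S (chr12:6988259-7071032, plus strand) and C1R (chr12:7080214-7092540, minus strand) face each other with their 3′ ends 9.18 kb apart, and C1RL lies beyond C1R on the same strand as C1R. The levels of this cluster ran from 12.7 (C1R) to 50.2 (C1RL) in base mean. CD55 (chr1:207321519-207386804) and CD46 (chr1:207752037-207795513) lie on the plus strand of chromosome 1, 365 kb apart. CR2 and CR1, the complement receptors between them, have no row, so the 2 outer genes of this stretch were at 162 and 305 while the inner genes were not listed.

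CD59 (chr11:33703010-33736479, minus strand) and SERPING1 (chr11:57597387-57619171, plus strand) share a chromosome but not a neighbourhood. C3 (chr19:6677704-6730562, minus strand) and CFI (chr4:109731008-109802150, minus strand) had no other listed complement gene within 500 kb. CFB (chr6:31945650-31952086, plus strand) lies beside C2 and within 29.97 kb of C4A and 62.7 kb of C4B. In that cluster C2, with a base mean of 5.49, was the single gene with a row.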

How the data were processed

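RNA of 6 AB 8/13 podocyte cultures was sequenced by an adapted CEL-seq protocol. The treatment label names 3 as levamisole and 3 as serum free for 24 h, and the latter are called vehicle after the study's methods. Per the submitters' processing notes, the authors trimmed reads with Trim Galore 0.4.5 and cutadapt 1.18, mapped them to GRCh38 with STAR 2.7.5a, counted them with HTSeq 0.11.0 and compared the groups with DESeq2 1.22.0. The authors' deposited table holds, for each of 20745 genes, a base mean, a signal that the authors obtained by dividing counts by size factors and averaging over libraries; the number of libraries is not given in the sources used here. Its remaining columns hold the authors' log2 fold change, standard error, Wald statistic, p-value and adjusted p-value and were not used. Depth per library is unknown, so no interval or test was computed.

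Base means were ranked, summed by role and divided by exon length from GENCODE 44 on GRCh38, a later annotation than the authors' own, with 20599 identifiers matched. A base mean of at least 5 counted as detected, a number taken from the minimum count in the study's methods. That minimum applies to the reads of each sample, so a pooled mean of 5 is a looser rule. Same-strand exon overlap was measured over all exons, the last 500 and 1000 exonic bases and the canonical transcript. Polyadenylation signals were searched on the transcribed strand only, in the last 40 bases of canonical transcripts. The ranking and overlap steps were tested on simulated data. Python 3.11.15, NumPy 2.4.6, pandas 2.3.3 and matplotlib 3.10.9 were used. Genes named are the 9 members, detected genes of the complement list (the others by symbol), up to 4 markers per cell type, highest first, and genes that cover a member's exons. Members, the complement list by role and the marker lists (podocyte, hepatocyte, leukocyte, endothelium, tubule, mesangium) were chosen with earlier results of these data known. Results for some listed genes are not reported here. A planned comparison of the members' protein sequences was not run. Alternatives were other ranking sets, lengths, detection levels, list members and exon windows.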

Additional observations from a re-analysis of the deposited data

How the results depend on the processing

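Base means pooled over both groups limit every value here: no spread between cultures, no depth per library and no effect of levamisole can be read from them. Of 142 alternative values over 46 results, 94 moved by less than 1.5-fold and 48 by more. Some of the 48 were bound to move, since levels per kilobase were set against undivided levels, which differ by the exon length. Division by the longest transcript cannot give a lower level than division by all exons. The tally is therefore no measure of how firm the results are. The median place of the 8 members was above 63.9% of all genes, 50.1% of protein-coding genes and 43.8% of detected genes, so it passed the middle with the last choice. With detection at a base mean of 50, the detected complement genes fell from 20 to 9 and the detected members from 8 to 4. The share of all genes reaching that level was not counted, so this fall does not set complement genes apart. The share of CD46, CD55 and CD59 in the list was 60.7% by base mean and 39.6% per kilobase. Members sharing an exonic base with another gene on their strand numbered 6 over all exons, 1 over the last 500 or 1000 exonic bases, and 2 over the last 500 bases of the canonical transcript, a window that, like the ranking per kilobase and the limit to genes no newer than the table, was chosen after seeing the data. Ranked among protein-coding genes alone, the lower members lay at 24.2% (CFI) to 31.7% (SERPING1), and among detected genes (base mean 5 or more) at 11.4% to 22.3%. No paired analysis was possible because the table used holds no values per culture, and for the same reason no culture could be left out.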
